A study of Mus musculus with 12 samples.

Results

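H3K79me2 lies mainly in the bodies of transcribed protein-coding genes, and the peaks described here are those that lay outside them. They are the peaks of the DMSO list that shared 0 bases with any protein-coding gene, from its start to its end, in the RefSeq gene table of GRCm38, the build also called mm10. The rule took 566 of 12578 DMSO peaks, which is 4.50% (exact 95% interval 4.14 to 4.88). Of these noncoding peaks, 281 shared at least 1 base with another annotated gene, such as a long noncoding RNA (lncRNA), a microRNA or a pseudogene, and 285 lay on no annotated gene. The other 12012 DMSO peaks touched a protein-coding gene and are called gene peaks below.

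The study profiled H3K79me2 by chromatin immunoprecipitation and sequencing in CD8 T cells of male mice. The mice came from the CreERT2;DOT1L-flox;OT-I strain, with the genotype given in that order as wt;wt;het. All groups were thus labelled heterozygous for the OT-I receptor transgene, of unstated copy number, and had unaltered Dot1l. The cells were activated through CD3 and CD28, expanded for 8 days and dosed every 2 days with 0.1% DMSO or with one of 2 DOT1L inhibitors, EPZ-5676 or SGC-0946, both labelled as 10 mM, a unit that is doubtful for cultured cells. Each of the 3 treatments had 2 immunoprecipitates and 2 inputs, each immunoprecipitation held yeast chromatin with HA-tagged H3 as a spike-in, and 1 list of broad peaks per treatment was deposited. All 3 groups are expanded cultures of activated cells, and chromatin was pooled over many cells, so a strong mark in few cells and a weak mark in many cannot be told apart.

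The DMSO list fitted its cell type label. All 8 CD8 T cell markers checked, among them Cd3e and Cd8a, held a DMSO peak, against 0 of 3 CD4 T cell, 0 of 4 B cell, 0 of 4 myeloid and 0 of 2 NK cell markers. Over all protein-coding genes the share with a DMSO peak was 34.5%. Read depth is unknown from these lists, and with 1 pooled list per treatment no replicate spread exists and no test was made. Intervals given below cover counting of peaks or genes only. Fold enrichment is the authors' value of a peak over background, averaged over the peak, and is compared only within 1 list. A position without a peak is one where none was called.

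H3K79me2 is placed on histone H3 by the methyltransferase DOT1L, which travels with factors that bind elongating RNA polymerase II. The mark is known from the first kilobases of transcribed genes and is not restricted to genes that encode a protein. Long noncoding RNAs, the primary transcripts of microRNAs, the host genes of small nucleolar RNAs (snoRNAs) and rearranged antigen receptor loci are all transcribed by RNA polymerase II. RNA polymerase III genes such as Rn7sk and the Y RNA genes are transcribed by a different enzyme.

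The microRNA genes under noncoding peaks belonged largely to a few families, and their mature sequences are shown because they identify these families. There were 25 such genes, 24 of which matched a RefSeq entry on GRCm38.p6, with 44 mature names and 31 seeds. Capitals mark the seed, bases 2 to 8, and sequences run 5′ to 3′. The let-7 family, which restrains growth-promoting transcripts in many cells, had the seed GAGGUAG in 4 genes:
let-7a-5p: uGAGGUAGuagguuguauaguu
let-7d-5p: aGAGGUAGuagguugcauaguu
let-7f-5p: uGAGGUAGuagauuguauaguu
let-7i-5p: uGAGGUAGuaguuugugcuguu
The miR-17 family, known for its part in lymphocyte growth, had the seed AAAGUGC in 4 genes, of which Mir17 and Mir20a lie in the cluster on chromosome 14 and Mir20b and Mir106a in its relative on the X chromosome:
miR-17-5p: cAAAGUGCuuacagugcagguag
miR-20a-5p: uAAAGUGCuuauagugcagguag
miR-20b-5p: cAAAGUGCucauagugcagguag
miR-106a-5p: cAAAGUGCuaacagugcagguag
The miR-15 family, whose members lie within the lncRNA gene Dleu2, had the seed AGCAGCA in 2 genes:
miR-15a-5p: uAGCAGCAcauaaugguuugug
miR-16-5p: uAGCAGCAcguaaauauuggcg

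Promoter windows of 3 lncRNA genes are shown because the noncoding peak covered the start of each and because they differ widely in CpG content. Over all such windows the count of CG ran from 0 at Gm30275 to 36 at Snhg5. Each window runs from 250 bases before to 50 after the start, on GRCm38.p6 from RefSeq, with every CG in capitals. Snhg15, a snoRNA host gene, has its window at chr11:6528711-6529010 on the minus strand and holds 29 CG. Oip5os1, an lncRNA gene beside Oip5, has its window at chr2:119594046-119594345 on the plus strand and holds 15 CG. AW112010, an lncRNA gene known from activated lymphocytes, has its window at chr19:11050517-11050816 on the minus strand and holds 1 CG.
Snhg15: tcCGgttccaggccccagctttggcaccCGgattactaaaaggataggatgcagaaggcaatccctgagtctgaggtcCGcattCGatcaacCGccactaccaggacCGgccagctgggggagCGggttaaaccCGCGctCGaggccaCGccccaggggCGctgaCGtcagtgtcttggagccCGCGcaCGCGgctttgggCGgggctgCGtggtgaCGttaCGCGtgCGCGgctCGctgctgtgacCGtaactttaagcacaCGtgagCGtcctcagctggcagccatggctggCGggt
Oip5os1: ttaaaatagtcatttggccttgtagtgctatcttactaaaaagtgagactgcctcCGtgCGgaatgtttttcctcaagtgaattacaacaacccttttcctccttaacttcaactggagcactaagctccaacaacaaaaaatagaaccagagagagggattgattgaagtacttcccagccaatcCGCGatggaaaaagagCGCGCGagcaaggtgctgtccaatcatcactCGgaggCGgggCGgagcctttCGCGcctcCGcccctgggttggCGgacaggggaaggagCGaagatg
AW112010: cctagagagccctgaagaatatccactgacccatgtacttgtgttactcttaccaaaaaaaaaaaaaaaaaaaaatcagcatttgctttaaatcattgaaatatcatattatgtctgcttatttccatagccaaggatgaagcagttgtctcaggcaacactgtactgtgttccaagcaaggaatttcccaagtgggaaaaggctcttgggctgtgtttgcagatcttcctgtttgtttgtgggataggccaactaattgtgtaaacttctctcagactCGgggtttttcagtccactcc

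Noncoding peaks were narrower than gene peaks by median and somewhat lower in fold enrichment. Their median fold enrichment was 3.19 (quartiles 2.84 and 3.94), against 3.36 (2.91 and 4.66) for gene peaks. Peaks on other genes had a median of 3.41 and peaks on no gene a median of 3.01. The median width was 1330.5 bases, against 2499 bases for gene peaks. Peaks under 1 kb made up 39.8% of noncoding and 24.0% of gene peaks, and peaks of 10 kb or more made up 5.12% and 15.2%. A wide peak is more likely to touch a gene, so the rule itself favours narrow peaks and the difference in width is given as a description. Noncoding peaks covered 1.83 Mb, which was 2.68% of all DMSO peak bases.

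**Figure D1:**
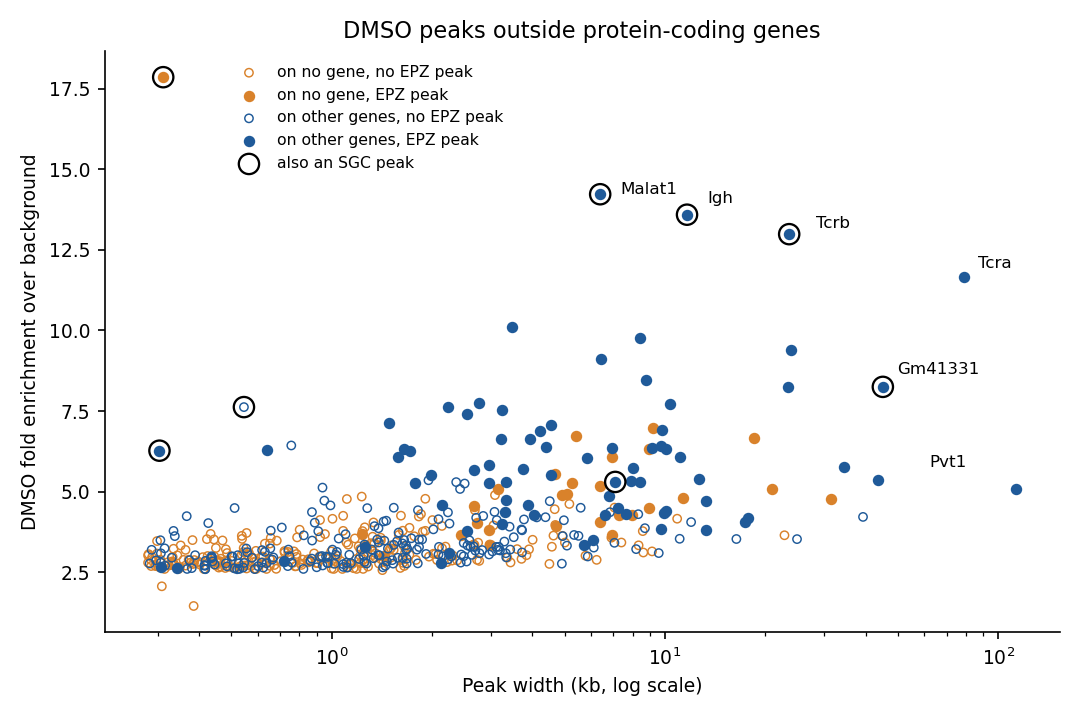
Width in kb (log scale) against DMSO fold enrichment for the 566 noncoding peaks. Each point is 1 peak, blue on other genes and orange on no gene, filled where an EPZ peak overlapped it and ringed where an SGC peak did; most peaks sit below a fold enrichment of 5, and the peak near Malt1, Malat1, Igh, Tcrb and Tcra stand above 11.

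The highest fold enrichment of the whole DMSO list belonged to a peak on no gene. This peak, at chr18:65427479-65427790, was 312 bases wide and lay 3.15 kb from Malt1, with a DMSO fold enrichment of 17.85. An EPZ peak covered 97.1% of it and an SGC peak 98.4%. The lowest of the DMSO list was also on no gene, at chr9:3024090-3024474, with a fold enrichment of 1.45 beside a −log10 q of 17.0, and the next above it was 2.06 at chr16:3351126-3351434. Among the DMSO peaks in the top decile of fold enrichment, 2 of 27 noncoding peaks were narrower than 1 kb, against 1 of 1231 gene peaks. The 2 were the peak near Malt1 and one on Gm24105, and both had an SGC peak. No filter for regions of poor mapping was applied here. Whether the highest and lowest peaks and these narrow ones reflect the mark was not tested.

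Malat1 and 3 antigen receptor loci had the highest fold enrichments among peaks on other genes. Malat1, which encodes an abundant RNA of nuclear speckles, had 1 peak of 6.39 kb at chr19:5796250-5802640 with a fold enrichment of 14.2, and an EPZ peak covered all of it. Neat1, which encodes the scaffold RNA of paraspeckles and lies beside Malat1, had a peak of 8.80 kb at chr19:5841207-5850001 with a fold enrichment of 8.47. Of this peak, 48.6% lay on Neat1 and EPZ peaks covered 35.3%. Both RNAs are made in most cell types, and both peaks held an EPZ peak.

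The receptor loci held 19 noncoding peaks, 13 of them (68.4%, 43.4 to 87.4) with an EPZ peak, against 18.4% of noncoding and 26.9% of all DMSO peaks. The T cell receptor alpha locus, whose J segments and constant region lay under 1 peak, had the second widest noncoding peak, 78.99 kb at chr14:54148056-54227042, with a fold enrichment of 11.6 and EPZ peaks over 97.5% of it. The T cell receptor beta locus had a peak of 23.6 kb over its D, J and constant segments at chr6:41530813-41554407, with a fold enrichment of 13.0 and EPZ coverage of 90.8%. A peak of 11.6 kb at chr12:113418826-113430472 covered Ighm and the J segments of the immunoglobulin heavy chain locus, with a fold enrichment of 13.6 and EPZ coverage of 68.6%. Igh encodes the antibody heavy chain of B cells, while 0 of the 4 B cell markers checked held a DMSO peak. The gamma locus was marked too, with a fold enrichment of 4.28 at Trgj1 and Trgc1, and so were the delta segments Trdj1 at 5.30 and Trdj2 and Trdc, under 1 peak, at 4.40. Among V segments the marked ones included Trbv11 and Trbv12-1 under 1 peak at 4.30, Trav13-5 at 3.77 and Trdv2-2 at 3.50. Receptor segments under a noncoding peak numbered 99 of 686, or 14.4%. Over all genes that are not protein-coding, 5.63% held a DMSO peak. The 99 segments lay under 14 noncoding peaks, 1 of which held the J and constant segments of the alpha locus. They are therefore not separate observations. The cells carry the OT-I receptor transgene, and these lists cannot tell its reads apart from those of the native alpha and beta loci.

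The host genes of snoRNAs were the most completely marked of the 4 noncoding lists. Of 20 listed, 18 held a DMSO peak, and 11 of these held a noncoding peak. Over all lncRNA genes the share with a DMSO peak was 6.96%, over all genes that are not protein-coding it was 5.63%, and over snoRNA genes it was 14.3%. Snhg15 had the highest fold enrichment of the list at 10.1, over a peak of 3.48 kb. Among the other hosts under noncoding peaks the values were Snhg3 at 7.62, Snhg16 at 7.54, Snhg8 at 7.12, Snhg17 at 6.40, Snhg12 at 6.27, Snhg5 at 6.07, Snhg7 at 5.84 and Snhg4 at 4.28, each with an EPZ peak. Dancr at 4.50 and Snhg20 at 3.59 were the 2 hosts under noncoding peaks whose peak held no EPZ peak. These peaks were short, from 1.48 kb at Snhg8 to 4.41 kb at Snhg17. The remaining 7 marked hosts, such as Gas5 at 8.71, lay under gene peaks, and Snhg11 and Snhg18 had no DMSO peak. The 16 noncoding peaks that touched a snoRNA gene had a median fold enrichment of 5.96. Of these, 13 held an EPZ peak, 81.25%, against 26.9% of all DMSO peaks. In decile 9 of DMSO fold enrichment, where this median lies, the share was 84.6% of noncoding and 91.2% of gene peaks.

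Of 20 RNA genes known from lymphocytes or from many tissues, 10 held a DMSO peak and 9 of them a noncoding peak. Besides Malat1 and Neat1 these were Pvt1, Morrbid, Dleu2, Ftx at 5.71, Norad at 4.75, Dubr at 4.01 and Jpx at 3.46. Ftx and Jpx lie in the X inactivation centre, and Norad binds Pumilio proteins in the cytoplasm. Chaserr, next to Chd2, held a gene peak of fold enrichment 10.4. Unmarked members included Xist and Tsix, which act in female cells, the RNA polymerase III genes Rn7sk, Rmrp, Rpph1, Rny1, Rny3 and Vaultrc5, and also Terc and Firre. Of 19 genes known from other tissues or imprinted loci, such as H19 and Hotair, 2 held a DMSO peak, Kcnq1ot1 and Airn, both through gene peaks. Of 7 microRNA host genes in the table, 2 held a noncoding peak, Mir17hg at 7.40 and Mir22hg at 3.23, and Mir155hg had none. The same list held Mirt1 and Mirt2, lncRNA genes named for myocardial infarction and not microRNA hosts, of which Mirt1 had a noncoding peak at 3.89.

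**Figure D2:**
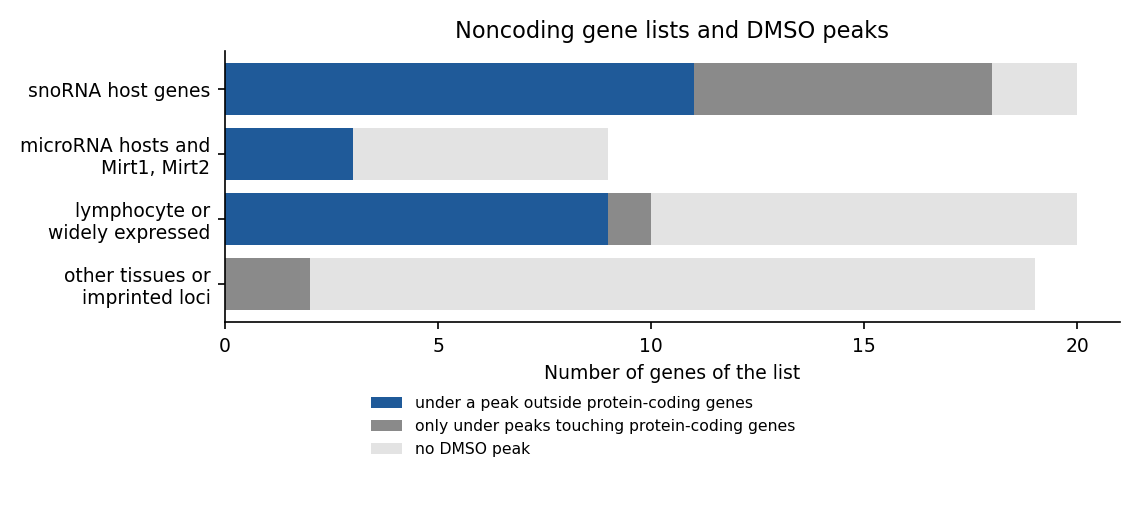
Number of genes in 4 noncoding gene lists by DMSO peak. Bars are split into genes under a noncoding peak, genes under gene peaks only and genes with no DMSO peak; 18 of 20 snoRNA host genes were marked and 2 of 19 genes of other tissues or imprinted loci.

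MicroRNA genes under noncoding peaks lay in 11 peaks, and 11.3% of all microRNA genes held a DMSO peak. Of the 11 peaks, 7 held an EPZ peak, 63.6%, against 26.9% of all DMSO peaks. Their median fold enrichment was 4.37. In decile 8, where this median lies, 47.8% of noncoding and 56.4% of gene peaks held an EPZ peak. The let-7a and let-7f hairpins of chromosome 13 sat in a peak of 8.43 kb at chr13:48537628-48546052 with a fold enrichment of 9.76, while the let-7d hairpin beside them lay in a separate peak of 618 bases with a fold enrichment of 3.19. The let-7i hairpin lay in a peak of 6.45 kb with a fold enrichment of 9.11. The 6 hairpins from Mir17 to Mir92-1 shared a peak of 2.55 kb at chr14:115042302-115044853 with a fold enrichment of 7.40, and its relative on the X chromosome, at the Kis2 gene, had a peak of 3.31 kb with a fold enrichment of 4.37. The Mir23a, Mir27a and Mir24-2 hairpins lay at the end of a peak of 8.04 kb on chromosome 8 with a fold enrichment of 5.72. Mir15a and Mir16-1 lay under the Dleu2 peak of 23.3 kb, with a fold enrichment of 8.24. Of the 25 hairpins themselves, 2, Mir17 and Mir1949, shared a base with an EPZ peak. Over all 1228 microRNA genes, 139 held a DMSO peak and 38 an EPZ peak. The 25 hairpins lay in 11 peaks, so they are not separate observations. In the let-7a and let-7f peak, for example, EPZ coverage was 87.4% and left both hairpins outside.

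Several of the widest noncoding peaks lay on lncRNA genes, while Tcra and Tcrb, given above, Gm8995 and a peak on no gene were also among the 10 widest. Pvt1, an lncRNA gene next to Myc, had the widest noncoding peak, 113.4 kb at chr15:62038014-62151401, with a fold enrichment of 5.07. Together 7 peaks covered 149.2 kb of a stretch of 160.05 kb at Pvt1, and EPZ peaks covered 15.3% of the widest. Lncpint had peaks of 43.6 kb and 39.3 kb, with fold enrichments of 5.35 and 4.22, and an EPZ peak overlapped the first and not the second. Gm41331 had a peak of 45.1 kb with a fold enrichment of 8.25 and EPZ coverage of 79.3%, and a peak of 31.5 kb on no gene lay 2.80 kb away. Morrbid, an lncRNA known to control survival of myeloid cells and to act in CD8 T cells, had 5 peaks over 47.5 kb, the widest of 24.9 kb with a fold enrichment of 3.53 and no EPZ peak. B130006D01Rik, with a peak of 34.4 kb, held 6 separate EPZ peaks over 44.0% of it, although 9.27% of this peak lay on the gene. Joined across gaps under 5 kb, the 566 peaks fell into 438 stretches, and 93 of these held 2 or more peaks, 221 peaks in all.

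**Figure D3:**
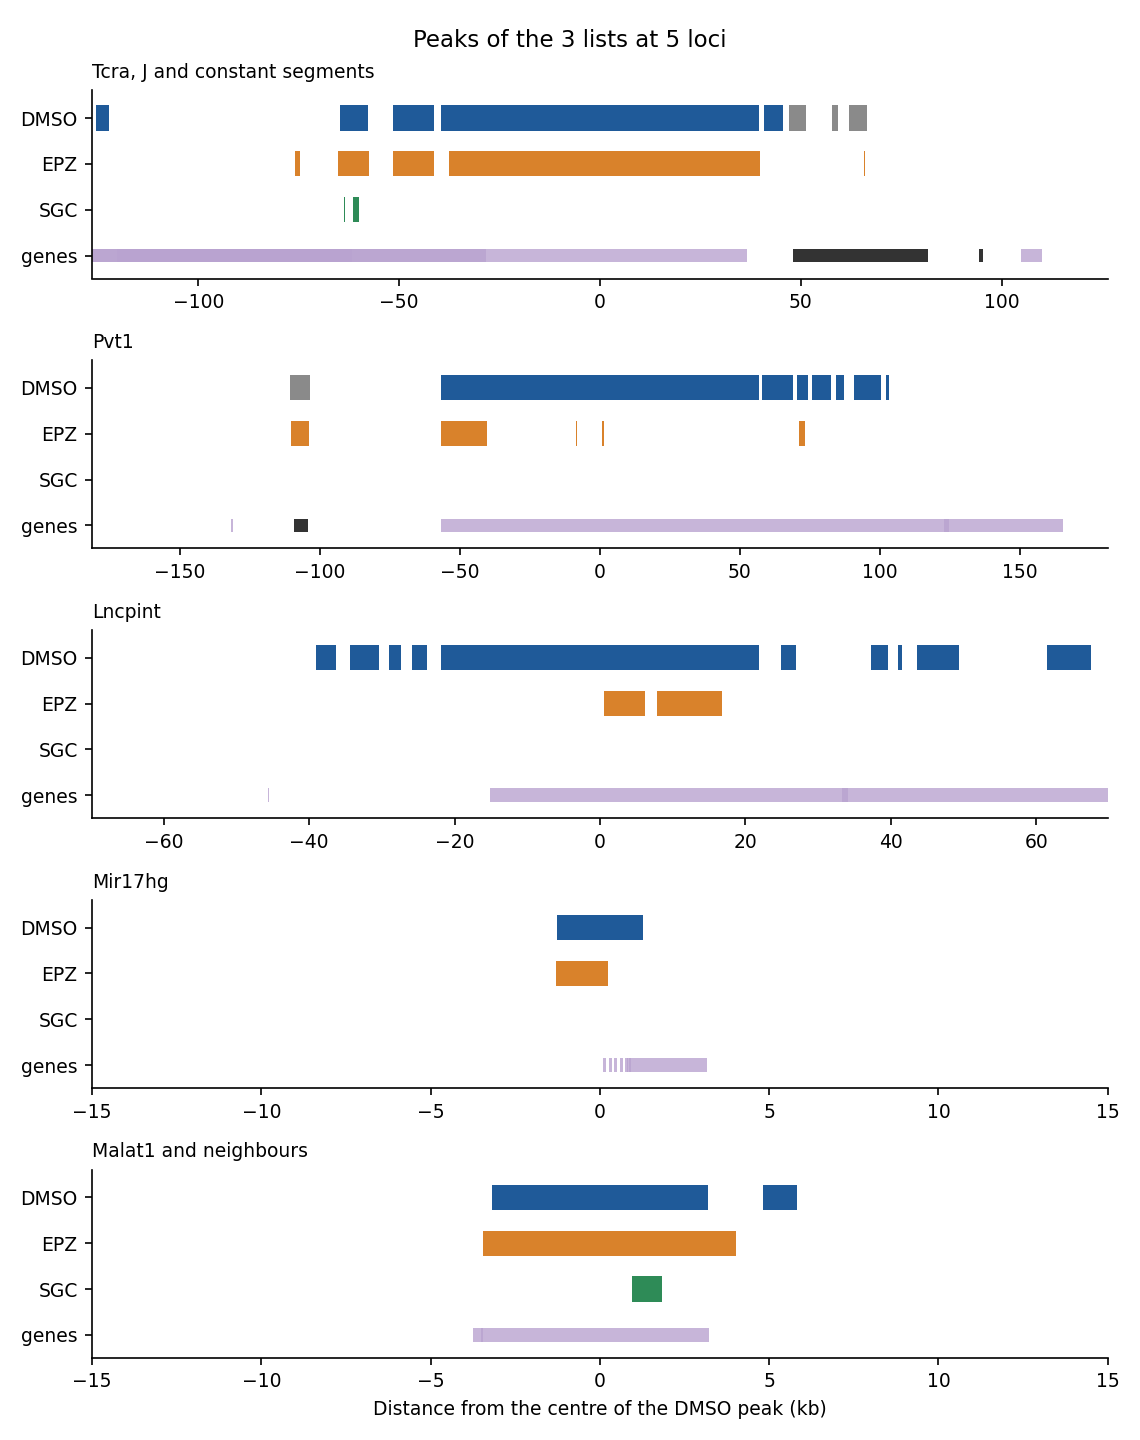
Peaks of the DMSO, EPZ and SGC lists at 5 loci, by distance in kb from the centre of a noncoding peak. Blue bars are noncoding peaks and grey bars gene peaks of the DMSO list, orange bars EPZ peaks, green bars SGC peaks, and in the gene track black marks protein-coding and lilac other genes; EPZ peaks cover nearly the whole Tcra peak and 15.3% of the widest Pvt1 peak.

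Other named peaks on RNA genes were strong as well. Gm8995, listed as a miscellaneous RNA, had a peak of 23.9 kb with a fold enrichment of 9.41. AA465934, which overlaps Snord7, had a fold enrichment of 7.75, and AU020206 one of 7.72. The next 2 miscellaneous RNA genes, 3110053B16Rik at 3.42 and Platr25 at 3.07, held no EPZ peak. Over all types, noncoding peaks touched lncRNA genes 223 times, pseudogenes 30 times, snoRNA genes 16 times, microRNA genes 11 times, miscellaneous RNA genes 8 times and an snRNA gene once, and a peak could touch several types.

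The pseudogene class of the table included Zfp683, a gene with a known product. The peaks of highest fold enrichment in this class lay on Gm4759 at 6.64, on 2610005L07Rik with Gm20584 at 6.43, and on Snhg17 at 6.40. The Snhg17 peak also touched a pseudogene and a snoRNA gene. Zfp683, which encodes Hobit, a transcription factor of resident memory and effector T cells, is listed as a pseudogene in this table and held a peak of 5.50 kb at chr4:134052597-134058097 with a fold enrichment of 3.63 and no EPZ peak. H2-K2, a class I histocompatibility locus also listed as a pseudogene, had a peak of fold enrichment 4.07. Zfp683 and H2-K2 were picked after their values were seen. Without pseudogenes, the share of noncoding peaks on other genes was 44.9% in place of 49.6%.

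Among the 285 peaks on no gene, the strongest after the peak near Malt1 were those nearest Zbtb2, Scimp, Rap2b, Yy1 and Actb. A peak of 9.22 kb at chr10:4388285-4397507 ended 176 bases before the start of Zbtb2, a zinc finger gene, with a fold enrichment of 6.97. The peak nearest Scimp, an adaptor gene of immune cells, had a fold enrichment of 6.73, and the peak that lay 533 bases before the start of Yy1, a transcription factor gene, had one of 6.33. The peak nearest Actb, which encodes beta-actin, had a fold enrichment of 6.07, and that past the end of Fasl, the death ligand of cytotoxic T cells, one of 5.18. Each of these held an EPZ peak. The peaks nearest Castor1 at 5.53, Chd2 at 5.26, Dhx40 at 5.07, Sec22c at 4.93 and Naif1 at 4.89 held one too.

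A pair of peaks on no gene lay far from any protein-coding gene on chromosome 3 and was almost fully covered by EPZ peaks. At chr3:61498606-61517158 a peak of 18.6 kb had a fold enrichment of 6.67, lay 129.9 kb past the end of Rap2b and was 98.8% under EPZ peaks. Its neighbour of 11.3 kb had a fold enrichment of 4.79 and EPZ coverage of 99.4%. A peak of 20.9 kb on the same chromosome, 327.2 kb from Gpr149, had a fold enrichment of 5.09 and EPZ coverage of 69.8%. Peaks on no gene that held no EPZ peak included one 71.3 kb before the start of Sp4 at 4.89, one 255 bases before the start of Tbl1xr1 at 4.85, and one 186.9 kb past the end of 9530057J20Rik at 4.78.

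Noncoding peaks were spread from the edges of protein-coding genes to far from them. The gap to the nearest protein-coding gene ranged from 84 bases, at the peak on Oas1b beside Oas1c, to 488.2 kb, with a median of 13.7 kb. It was 20.7 kb for peaks on other genes and 9.06 kb for peaks on no gene. Within 5 kb of a protein-coding gene lay 180 noncoding peaks, or 31.8% (28.0 to 35.8), which were 40.0% of the peaks on no gene and 23.5% of those on other genes. More than 50 kb away lay 122 peaks, or 21.6%. At the edge of the rule, 2 noncoding peaks lay within 100 bases of a protein-coding gene, and 3 gene peaks had less than 10% of their bases in one.

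The nearest protein-coding gene was often marked itself. It held a DMSO peak for 384 of the 566 peaks, or 67.8% (63.8 to 71.7), against 34.5% of all protein-coding genes. The first share counts peaks, and a gene such as Dad1 or Myc was nearest to several of them. The second counts each gene once, so the shares differ in unit. For peaks on no gene the share was 76.5%, and for peaks on other genes 59.1%. Of the 180 peaks within 5 kb, 90 lay before the start of the nearest gene, 55 past its end, and 35 beside a gene whose strand the promoter table did not give. An EPZ peak overlapped 8 of the 90 before a start, 8.89% (3.92 to 16.8), and 12 of the 55 past an end, 21.8% (11.8 to 35.0). These intervals overlap. Of the 12 past an end, 9 also lay on another gene.

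**Figure D4:**
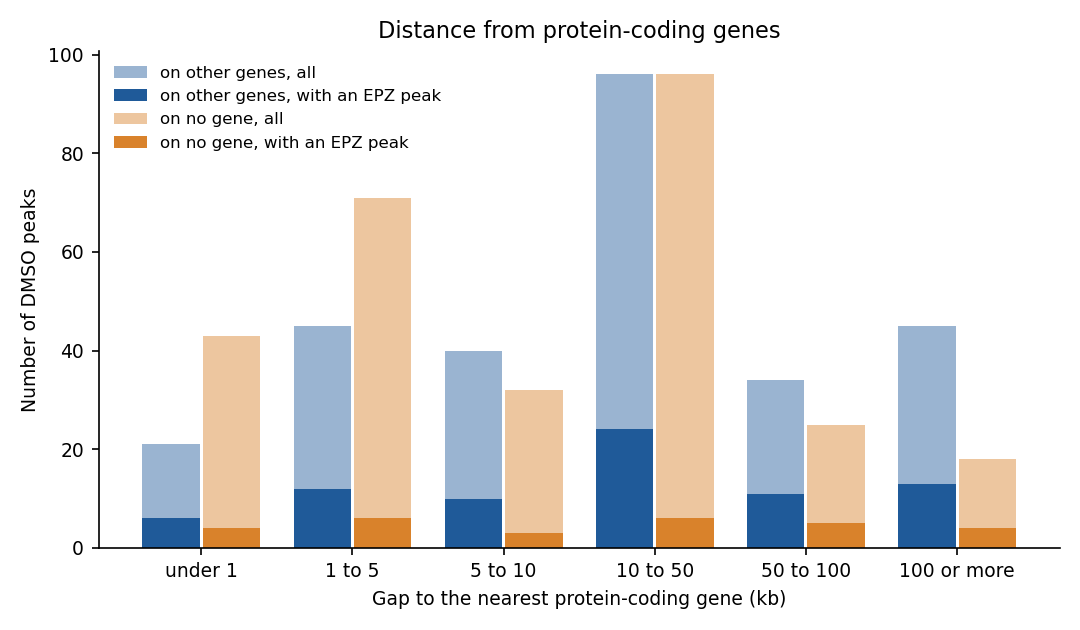
Number of noncoding peaks by gap to the nearest protein-coding gene in kb. Pale bars count all peaks and dark bars those with an EPZ peak, blue on other genes and orange on no gene; 43 peaks on no gene lie under 1 kb from a protein-coding gene, and both kinds are most frequent between 10 and 50 kb.

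A smaller share of noncoding than of gene peaks held an EPZ peak. An EPZ peak overlapped 104 of the 566, or 18.4% (15.3 to 21.8), against 26.9% of all DMSO peaks and 27.3% of gene peaks. The share was 27.0% (21.9 to 32.6) for peaks on other genes and 9.82% (6.63 to 13.9) for peaks on no gene, a difference of 17.2 percentage points. By bases, EPZ peaks covered 26.0% of noncoding and 26.4% of gene peaks. Where an EPZ peak was present, the median coverage was 44.2% of a noncoding and 35.4% of a gene peak. Noncoding peaks with an EPZ peak were stronger and wider, with medians of 5.31 for DMSO fold enrichment and 5559.5 bases for width, against 3.03 and 1070 bases for those without one.

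The share of peaks with an EPZ peak was higher at higher DMSO fold enrichment, among noncoding and gene peaks alike. At or above the DMSO median it was 40.4% (34.1 to 47.0) of noncoding and 53.9% (52.7 to 55.2) of gene peaks. The order of noncoding and gene peaks varied with the decile. Decile 6 gave 6.06% (1.68 to 14.8) of noncoding and 3.19% (2.27 to 4.35) of gene peaks. Decile 7 gave 17.5% (8.75 to 29.9) and 17.2% (15.1 to 19.4). Decile 8 gave 47.8% (32.9 to 63.1) and 56.4% (53.6 to 59.2), and deciles 6 to 8 together 21.3% (15.4 to 28.3) and 25.7% (24.3 to 27.2). In decile 9 the shares were 33 of 39 (84.6%) and 91.2%. In decile 10, the strongest, they were 26 of 27 (96.3%) and 99.6%, and the noncoding peak without an EPZ peak was Gm24105. Between the kinds of noncoding peak the direction varied with the stratum. At or above the median an EPZ peak overlapped 47.9% (39.5 to 56.4) of peaks on other genes and 28.6% (19.6 to 39.0) of those on no gene. In deciles 6 to 8 these shares were 22.7% (14.5 to 32.9) and 19.8% (11.7 to 30.1). In decile 9 they were 27 of 33 (81.8%) and 6 of 6, and in decile 10 they were 22 of 23 (95.7%) and 4 of 4. The part of fold enrichment in the difference between the kinds was not tested.

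**Figure D5:**
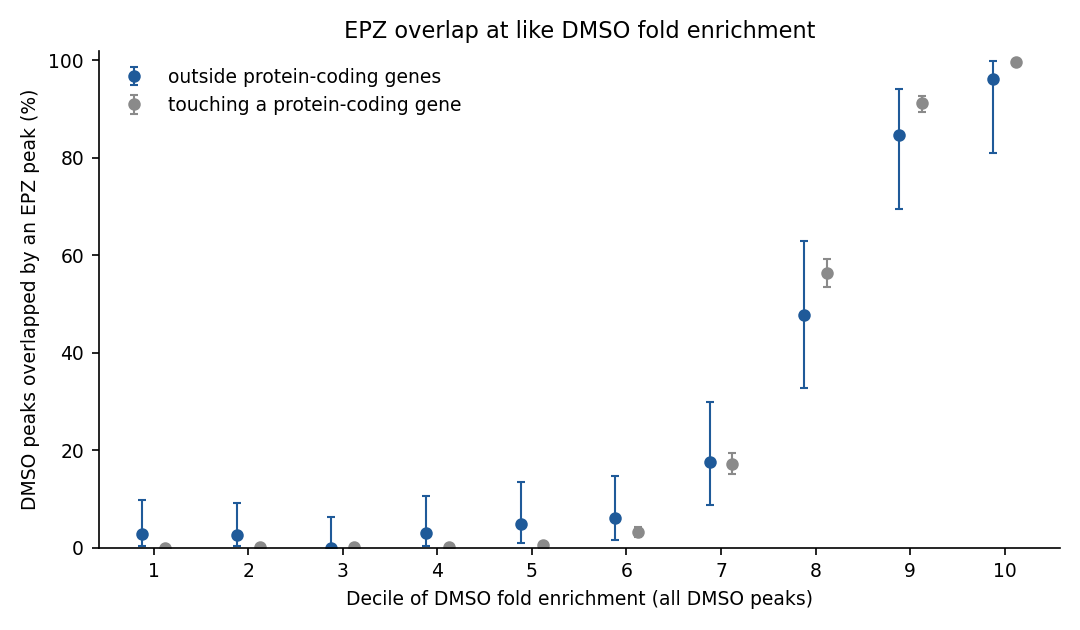
Share of DMSO peaks overlapped by an EPZ peak (%) in each decile of DMSO fold enrichment, with exact 95% intervals. Blue points are noncoding and grey points gene peaks; both stay under 7% through decile 6 and pass 80% in decile 9.

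Below the median fold enrichment of the DMSO list, 3.36, overlap with EPZ was rare but not evenly spread. An EPZ peak overlapped 9 of 331 noncoding peaks there, 2.72% (1.25 to 5.10), and 12 of 5958 gene peaks, 0.201% (0.104 to 0.352). Of the 9, 5 lay in antigen receptor loci, at Trbv31, Trdv1, Trav21-dv12, Trgc2 and a further site in Tcrg, out of 10 such peaks. Among the other 321 noncoding peaks below the median, 4 held an EPZ peak, 1.25% (0.341 to 3.16), namely 2900076A07Rik, Gm12596 and peaks on no gene nearest Mbnl1 and Glrp1. The EPZ peak at Trbv31 was the one that also covered the beta constant segments, with a fold enrichment of 26.3 in the EPZ list. Outside the receptor loci, 91 of 547 noncoding peaks, 16.6% (13.6 to 20.03), held an EPZ peak.

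Strong noncoding peaks without an EPZ peak were mostly short. By DMSO fold enrichment they were led by Gm24105 at 7.62, with a width of 545 bases, and by 2610005L07Rik with Gm20584 at 6.43, with a width of 756 bases. The lncRNA and pseudogene peaks that followed were Gm20139 at 5.35, Gm20257 at 5.30, Gm36445 at 5.25, Gm36220 with Snord104 at 5.13 and Gm26698 at 5.08, all between 0.938 kb and 2.51 kb wide. Then came the peaks on no gene nearest Sp4, Tbl1xr1 and 9530057J20Rik given above.

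Few peaks were called under SGC-0946, and a larger share of them than of EPZ peaks lay outside protein-coding genes. The SGC list held 55 peaks, 14 of which touched no protein-coding gene, 25.5% (14.7 to 39.0), against 147 of 4443 EPZ peaks, 3.31% (2.80 to 3.88). Of the 14 SGC peaks, 11 lay on noncoding DMSO peaks. These 11 were not separate loci, because Tcrb, Gm41331 and the DMSO peak at Trdj1 held 2 each. From the DMSO side, an SGC peak overlapped 8 noncoding peaks, 1.41% (0.612 to 2.77), against 34 gene peaks, 0.283% (0.196 to 0.395), and 0.334% of all DMSO peaks. The 8 were Malat1, Igh, Tcrb, the Trdj1 peak of the T cell receptor delta locus, Gm41331, Gm34259, Gm24105 and the peak near Malt1. The first 5 were 6.39 kb or wider and SGC peaks covered part of them, from 2.79% at Gm41331 to 35.1% at Tcrb. The other 3, at Gm34259, Gm24105 and near Malt1, were 304, 545 and 312 bases wide, and SGC peaks covered 76.3%, 49.7% and 98.4% of them. In the SGC list the peak near Malt1 had a fold enrichment of 13.0 and that at Gm24105 one of 7.84. The deposited −log10 q of the SGC peaks was 28.5 near Malt1, 11.05 at Gm24105, and 6.46 and 3.54 at Tcrb. It was 4.57 at Gm34259, and from 1.27 to 2.55 at Malat1, Igh, the Trdj1 peak and Gm41331. SGC calls at these last loci were thus weak. Both compounds are set against the same DMSO list, so their counts are given side by side only.

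Few inhibitor peaks lay outside protein-coding genes without a DMSO peak. Of the 147 EPZ peaks outside protein-coding genes, 120 lay on noncoding DMSO peaks, 23 on gene peaks alone and 4 on no DMSO peak. These 4 were at chr14:54111666-54112793 in the T cell receptor alpha and delta region, chr16:32202654-32202958, chr7:73627644-73628252 and chr8:123427359-123433140, with EPZ fold enrichments between 2.91 and 3.34. The 3 SGC peaks that lay on gene peaks alone were at chr11:87755873-87756797, at chr17:34000700-34001281 and on Chaserr.

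Where the start of an lncRNA gene was known, like shares of noncoding peaks and of gene peaks lay near the starts of their genes. Of 181 noncoding peaks on lncRNA genes with a known start, 52.5% (44.9 to 59.9) lay within 1 kb of a start. The share was 53.6% (52.6 to 54.6) of the 9818 gene peaks on protein-coding genes with a known start. A start was covered by 48 of the 181 noncoding peaks, 26.5%, against 23.3% of these gene peaks. Gene peaks were wider by median, and the part of width in these shares was not tested. Noncoding peaks that covered a start had a median fold enrichment of 4.65 and an EPZ peak in 58.3% (43.2 to 72.4), and those that covered none had a median of 3.20 and an EPZ peak in 12.8% (7.63 to 19.7). Gene peaks showed the same order, with 69.9% and 14.7%.

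The promoter windows of lncRNA starts under noncoding peaks held more CpG than those of lncRNA starts under no DMSO peak. They held less than those of lncRNA starts under gene peaks and of protein-coding starts under DMSO peaks. Starts were classed by the peak over them, so a gene marked elsewhere could count under no DMSO peak. In 300 bases the median count of CG was 8 over 50 lncRNA starts under noncoding peaks. It was 14 over 413 lncRNA starts under gene peaks, 4 over 9102 with no DMSO peak, and 22 over 2716 protein-coding starts under DMSO peaks. Median GC content was 52.5%, 58.3%, 48.3% and 61.3% in the same order. Both strands were searched for 5 short words, none of which contains another. GGGCGG, the GC box, stood in 40.0% of the 50 windows. It stood in 15.4% of windows of lncRNA starts under no DMSO peak and in 35.9% of all windows. CCGGAAG, the core of ETS sites, stood in 10.0%, 3.61% and 9.12%. CCAAT stood in 36.0%, 36.1% and 37.9%, and TATAAA in 18.0%, 15.9% and 14.2%. TGACGTCA, the cyclic AMP response element, stood in 2.0%, 1.02% and 1.88%, and 1 of the 50 windows, Snhg15, held it. In windows of lncRNA starts under gene peaks, GGGCGG stood in 46.5%, CCGGAAG in 12.8%, CCAAT in 31.0%, TATAAA in 9.93% and TGACGTCA in 0.726%. A match is a run of letters and no measure of binding.

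Noncoding peaks occurred on every chromosome listed. Their share of the DMSO peaks of a chromosome was 7.14% (4.42 to 10.8) on X and 6.72% on 16, and 2.86% (1.78 to 4.35) on 9 and 3.02% on 18, with 1 of 6 DMSO peaks on Y. The intervals of X and chromosome 9 do not overlap, and these 2 were picked as extremes among the chromosomes.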

How the data were processed

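The 12 libraries (6 immunoprecipitates, 6 inputs) gave 3 deposited lists of broad peaks, 1 per treatment, each taken as pooled over its 2 replicates. Builds were mm10 (GRCm38) for mouse and sacCer3 for yeast, and tools were MACS2 2.2.7.1, BWA 0.7.17-r1188 and Picard, per the submitters' processing notes. The sources used here do not give how replicates were pooled, whether inputs and yeast reads were used, or which thresholds applied. The deposited fold enrichment is the authors' ratio over background, and the deposited −log10 q is the authors' value too, both per peak as MACS2 lays out broad peaks. The deposited −log10 p and score were not used. Low depth or another scaling would leave weak peaks uncalled, so counts cannot be read as amounts of mark.

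Peaks were compared, 1-based, with 21900 protein-coding and 28097 other genes of the RefSeq table, using Python 3.11.15, pandas 2.3.3, numpy 2.4.6 and SciPy 1.17.1. Overlap meant at least 1 base. Overlap, coverage and gap functions were tested on simulated intervals with no error. Exact (Clopper-Pearson) 95% intervals were used. Strand was known for 17492 protein-coding genes and starts for 9533 of 12731 lncRNA genes. Deciles of fold enrichment were set on all DMSO peaks. Exons and UTRs were not analysed here.

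Peaks named were the 15 of highest fold enrichment on other genes and the 15 on none, the 10 widest, those with an SGC peak, the 10 highest without an EPZ peak, the 3 highest of each gene type, and marked genes of the lists. Members and lists were chosen with earlier results of these data known. Alternatives changed the −log10 q minimum, the distance from genes, the overlap required and the gene classes counted.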

Additional observations from a re-analysis of the deposited data

How the results depend on the processing

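Values moved most with the strictness of peak calling. With peaks of −log10 q of at least 5 in every list, 93 noncoding peaks remained, with 74.2% on other genes, a median fold enrichment of 5.66, a median width of 4665 bases, an EPZ peak on 49.5% and an SGC peak on 3. The 3 with an SGC peak were Tcrb, Gm24105 and the peak near Malt1. At least 5 kb from protein-coding genes, 55.7% lay on other genes and the median width was 1534.5 bases. The share within 5 kb was 23.1% among peaks at least 1 kb away. By construction, a window of 1 kb gave 11.3% and one of 10 kb gave 44.5%. The share on other genes was 44.0% when 50% of the peak had to lie on them and 44.9% without pseudogenes. When inhibitor peaks had to cover 50% of the DMSO peak, EPZ overlap was 8.13%, the difference between peaks on other genes and on none was 9.30 percentage points, and 2 peaks held an SGC peak.

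Of 42 alternative values, 26 moved by less than their interval or 1.5 times and none changed sign. At −log10 q of at least 5 the difference between peaks on other genes and on none was 21.7 percentage points (−1.39 to 40.7). Leaving out antigen receptor loci, chosen after seeing the data, gave 16.6% EPZ overlap and a difference of 14.2 points. Except where a window or requirement sets the value, the cause was not tested. No paired analysis was possible because each list pools its replicates, and for the same reason no replicate could be left out. Unknown depth limits every list, most of all the SGC list.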
